A study of Rattus norvegicus with 12 samples.

Results

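The effect of phenylephrine (PE) was described across the transcriptome of neonatal rat ventricular myocytes (NRVMs) that carried a negative control siRNA (siNeg), using 6 of the 12 RNA-seq libraries of the series. The 3 siNeg PE libraries were set against the 3 siNeg libraries, and the 3 replicates of a group are described as independent biological replicates. NRVMs are primary heart muscle cells from the ventricles of newborn Sprague-Dawley rats, grown here in serum-free medium with insulin, transferrin and selenium. PE, an agonist of the α1-adrenergic receptor, was given for 36 h and was added 12 h after siRNA transfection according to the labels, while the siNeg libraries came from untreated cells. The study's methods give other times for both steps. The other 6 libraries are labelled as cells given an siRNA against Slc25a26, the mitochondrial carrier of S-adenosylmethionine, with and without PE. Slc25a26 was reduced in those without PE and not in those with it, and the study's methods name an siRNA against Nap1l5 for its RNA-seq instead. The question asked here was which pathways and gene classes moved with PE when no gene was silenced. The genes Nppa, Nppb, Acta1, Myh6, Myh7 and the Nap1l family are left aside.

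The α1-adrenergic receptor couples to Gq, which activates phospholipase C and, through it, protein kinase C and calcium release. In cultured myocytes this signal is a standard model of hypertrophic growth: the cells enlarge, add sarcomeres and increase protein synthesis without the load that a heart would meet. Newborn myocytes still hold some capacity to enter the cell cycle, and ventricular cultures keep a share of other heart cells that survive the separation.

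The 6 libraries were close in depth, holding between 25415568 and 26870531 counts without PE and between 24770972 and 26171547 with it. At this depth 3 counts correspond to 0.111 to 0.122 CPM, which are counts scaled to a common library size by edgeR's TMM method. Of 18469 genes in the table, 13719 were expressed well enough to be tested. A gene was called higher or lower where its fold change exceeded 1.5 and the adjusted p of edgeR's quasi-likelihood test was under 0.05. By this rule 1708 genes were higher with PE, which is 12.4% of those tested, and 1130 were lower, which is 8.24%. Most called changes were moderate: 609 genes rose and 437 fell by more than 2-fold, while 93 rose and 50 fell by more than 4-fold. The median log2 fold change of called genes was 0.87 for the higher and -0.88 for the lower set, and that of all genes tested was 0.00. Called-higher genes took up 7.07% to 7.86% of the counts in the siNeg libraries and 15.1% to 15.8% in the siNeg PE libraries. Called-lower genes went from 10% to 10.7% of the counts down to 5.27% to 5.41%. Libraries of the 2 groups did not overlap for 2736 of the 2838 called genes, or 96.4%, against 58.8% of all genes tested. With 3 libraries a side an exact permutation test of a single gene cannot go below 0.1, so the calls rest on the spread that edgeR pools over genes.

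The label of the cells was checked against marker genes. The 12 cardiomyocyte markers summed to 27825 to 30423 CPM in siNeg and 42002 to 49857 CPM in siNeg PE, and Tnnt2, cardiac troponin T, stood at 4413, 4903 and 4685 CPM in siNeg and 6319, 6230 and 6069 CPM in siNeg PE without being called (0.41). Of the 12 markers 3 were called higher, 2 lower and 7 not called (median 0.24), and Actc1 alone gained 13383 CPM, while Mb and Ckm were called lower at -0.73 and -0.67. Markers of other heart cells were also present. The 12 fibroblast markers summed to 21904 to 24174 CPM in siNeg and 11974 to 12171 CPM in siNeg PE, mostly collagen transcripts. The 12 smooth muscle and pericyte markers went from 4065 to 4389 CPM down to 2357 to 2779 CPM. The 12 endothelial markers went from 257 to 274 CPM to 230 to 253 CPM, and the 12 macrophage markers from 114 to 138 CPM down to 63.9 to 72.1 CPM. Of these, 10 endothelial and 9 macrophage markers were expressed well enough to be tested. No marker of these 5 types, tested or not, was at 0 in all libraries. In bulk RNA, fewer cells of a type and less RNA per cell cannot be told apart. The fibroblast list did not move as one: 7 of its 12 members were called lower, while Pdgfra, Dcn, Ddr2, Lum and Postn were not, with log2 fold changes of 0.37, 0.27, -0.00, 0.04 and 0.14. Of the 12 smooth muscle markers 6 were called lower and 2 higher. Of the 10 tested endothelial markers 4 were called lower, and of the 9 tested macrophage markers 6.

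**Figure D1:**
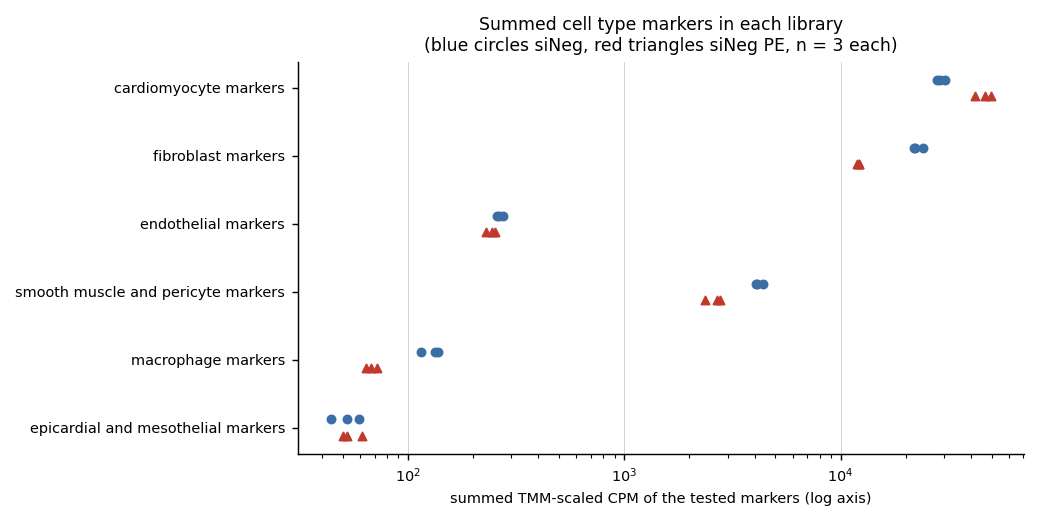
Summed TMM-scaled CPM of the tested members of 6 lists of cell type markers, 1 point a library on a log axis. Blue circles are siNeg and red triangles siNeg PE (n = 3 each). Cardiomyocyte markers sit higher in every siNeg PE library than in any siNeg library, fibroblast, smooth muscle and macrophage markers sit lower, and epicardial markers overlap at 43.8 to 59.4 and 49.9 to 61.4 CPM.

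The share of genes called higher grew with transcript length. Lengths were those implied by each gene's counts and FPKM values. Genes were divided by length into 5 groups of equal size. In the group with the shortest transcripts, 197 to 1402 bases, 6.52% were called higher, and in that with the longest, 4334 to 31774 bases, 19.9% were. The share called lower stayed between 7.54% and 9.11% over the 5 groups, and the median log2 fold change went from -0.03 to 0.10. Transcripts of the longest group also differed between replicates: their median log2 level over the siNeg mean was -0.04, -0.04 and 0.09 in siNeg 1 to 3 and 0.01, 0.10 and 0.19 in siNeg PE 1 to 3. The part of this in any single gene was not tested, and the length is given below for some lists only. Called-higher members were also long in lists described without it. Their median length was 6019 bases for sodium, calcium and pacemaker channels, 4415 for the adrenergic and Gq list and 4277 for calcium handling. Over all genes tested the median was 2490 bases. Called-higher members were short in other lists, with 1848 bases for the thick filament and M-band. By level, 14.6% of the genes in the lowest of 5 groups were called higher and 15.3% lower, against 8.42% and 5.10% in the highest group.

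The genes with the largest rises were for the most part barely expressed without PE, and several encode secreted peptides or their receptors. Pnoc, the precursor of the neuropeptide nociceptin, had 4, 1 and 5 counts in siNeg and 867, 801 and 632 in siNeg PE, a ratio of 236 with a 95% counting interval of 128 to 493. Every siNeg PE library was far above every siNeg library. Ramp3, which turns the calcitonin receptor-like receptor into a receptor for adrenomedullin, stood at 1.11, 0.812 and 0.521 CPM in siNeg and 12.9, 13.6 and 11.5 CPM in siNeg PE (log2 fold change 3.95 ± 0.21 SE, adjusted p = 1.09e-05). Inha, the α subunit of inhibin, stood at 18.4, 16.4 and 16.1 CPM and then at 167, 149 and 132 CPM (3.13 ± 0.10, adjusted p = 2.22e-06). In both genes the groups were far apart. Other large rises were those of Gda (guanine deaminase), Scn3b (a sodium channel β subunit), Reln (the matrix protein reelin), Olr1 (a receptor of oxidised lipoprotein), Gsta5 (a glutathione transferase), Mybpc2 (myosin-binding protein C of fast skeletal muscle), Ifit1bl (an interferon-induced protein) and Rnd1 (a small GTPase), with log2 fold changes from 3.20 to 3.76. Gsta5 and Ifit1bl have close relatives in the genome, and how the counting shared reads between them is not given.

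Among the largest falls, the genes with clear roles included those of hyaluronan turnover and repolarisation. Cemip, which promotes the breakdown of hyaluronan, was abundant without PE at 730, 644 and 732 CPM and stood at 73.5, 64.2 and 88.3 CPM with it (-3.22 ± 0.12, adjusted p = 2.96e-06). Kcnip2, the subunit that sets the surface density of the transient outward potassium channel, went from 58.1, 79.0 and 53.8 CPM to 9.32, 7.90 and 4.11 CPM (-3.16 ± 0.26, adjusted p = 6.9e-05). For these genes the groups were far apart and the order of libraries within a group differed from gene to gene. Other large falls were those of Hpn (the serine protease hepsin), Megf6, Asb10 and Asb14 (substrate adaptors of ubiquitin ligases), Ptprr (a phosphatase of MAP kinases), Gabrb2 (a GABA receptor subunit), Wisp2 (a matricellular protein), Eva1c and Plin4 (a lipid droplet protein), with log2 fold changes from -2.94 to -2.18.

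**Figure D2:**
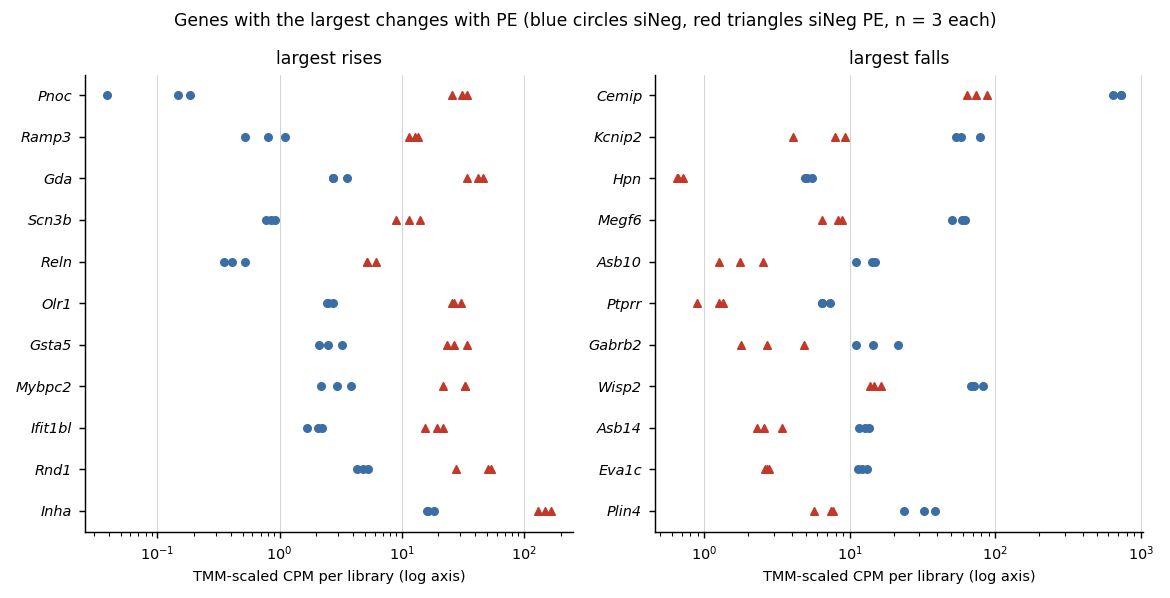
TMM-scaled CPM per library on log axes for leading genes among the 12 largest rises and the 12 largest falls (blue circles siNeg, red triangles siNeg PE, n = 3 each). Eligible genes were called ones without overlap between groups, so in every row the triangles lie entirely to one side of the circles. Pnoc shows the widest gap.

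Counted in CPM rather than in folds, the 8 largest gains included genes of the sarcomere and the 8 largest losses genes of the matrix. Actc1, cardiac α-actin, stood at 6531, 7163 and 5986 CPM in siNeg and at 22397, 20661 and 16772 CPM in siNeg PE (1.60 ± 0.12, adjusted p = 3.61e-05). It is close in sequence to the other muscle actins, so its share of reads depends on the counting. Ankrd1, a stretch-responsive protein of the sarcomere, went from 657, 736 and 699 CPM to 4848, 5197 and 3589 CPM (2.71 ± 0.13, adjusted p = 7.87e-06), and Fhl1, a LIM protein of the titin filament, from 326, 322 and 316 CPM to 2039, 1941 and 1326 CPM (2.46 ± 0.15, adjusted p = 1.79e-05). In all 3 genes siNeg PE 3 was the lowest of the treated libraries, yet above every siNeg library. The next largest gains were of Actn2 (α-actinin of the Z-disc), Scd2 (a desaturase), Tuba1a (a tubulin), Sorbs2 and Pam (a peptide-amidating enzyme), of which Pam, with a log2 fold change of 0.61, was not called without siNeg PE 3. On the loss side Col1a1, a chain of type I collagen, stood at 14502, 12861 and 13158 CPM and then at 7282, 6937 and 6870 CPM (-0.94 ± 0.07, adjusted p = 3.5e-05). Col3a1, Fn1, Mb (myoglobin), Actb (cytoplasmic β-actin), Eln (elastin), Vim (vimentin) and the entry NEWGENE_621351 followed, with log2 fold changes from -1.77 to -0.68.

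The receptors and the Gq pathway moved in both directions. Of 35 tested members 8 were called higher and 7 lower, with a median log2 fold change of -0.04. Of the 3 α1 receptors, Adra1a stood at 25.4, 27.3 and 35.4 CPM in siNeg and 42.7, 48.1 and 54.4 CPM in siNeg PE, a rise of 0.72 ± 0.14 (adjusted p = 0.00327). Adra1b, at 114, 119 and 123 CPM without PE and 61.5, 55.5 and 69.5 CPM with it, fell (-0.93 ± 0.08, adjusted p = 0.000101), as did Adra1d, from 49.99, 52.4 and 53.7 CPM to 22.8, 20.1 and 20.9 CPM (-1.29 ± 0.07, adjusted p = 1.2e-05). Each subtype separated the groups, and the subtype that rose was the one with the lowest level in siNeg when set per length (7.28 FPKM, against 49.7 FPKM for Adra1b and 18.4 FPKM for Adra1d). Among regulators of G proteins, Rgs2, which acts on Gq, rose from 21.4, 23.2 and 23.0 CPM to 44.9, 54.9 and 51.2 CPM (1.16 ± 0.09, adjusted p = 4.3e-05), and Rgs16 and Rgs4 fell, with log2 fold changes of -1.11 and -0.62, the call of Rgs4 being lost without siNeg PE 3 or without siNeg 1. Of the protein kinase C genes, Prkcb rose (1.79) from below 0.7 CPM, Prkca rose (0.83), and Prkch fell (-1.35). Adrb1, the main β receptor of myocytes, was not called at -0.47.

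Genes of the immediate early response and of MAP kinase feedback held larger shares of called-higher members than the 12.4% of all genes. In the first list 9 of 24 were called higher and 1 lower (median 0.37), and in the list of MAP kinase phosphatases and Sprouty proteins 7 of 21 higher and 1 lower (median 0.29). Nr4a3, an orphan nuclear receptor, went from 1.74, 2.01 and 1.64 CPM to 7.22, 8.48 and 8.45 CPM (2.16 ± 0.14, adjusted p = 2.51e-05), Egr2 from 10.9, 8.55 and 8.27 CPM to 32.7, 39.9 and 29.4 CPM (1.88 ± 0.15, adjusted p = 5.09e-05), and Fos from 10.7, 7.81 and 8.86 CPM to 20.04, 19.2 and 19.1 CPM (1.09 ± 0.12, adjusted p = 0.00026). All 3 separated the groups. Better known members did not pass the fold threshold: Jun had a log2 fold change of 0.35, Egr1 of 0.27 and Myc of -0.24. Among the phosphatases, which remove phosphate from activated MAP kinases, Dusp8 went from 9.08, 8.08 and 9.23 CPM to 37.5, 35.6 and 23.0 CPM (1.86 ± 0.18, adjusted p = 0.000146). Dusp4 rose by 1.29 and Dusp6, which acts on ERK, by 0.79 on the log2 scale. Ptprr, named above among the falls, also acts on MAP kinases and moved the other way.

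Calcineurin, a phosphatase activated by calcium, raises Rcan1, a feedback inhibitor. Rcan1 stood at 91.9, 86.2 and 83.0 CPM in siNeg and 236, 249 and 170 CPM in siNeg PE (1.33 ± 0.13, adjusted p = 0.000162). Of 17 members of the calcineurin and NFAT list 3 were called higher, or 17.65%, and 1 lower, or 5.88%, with a median of -0.01. The one that fell was Nfatc2 (-1.01), a transcription factor that calcineurin activates. Of 25 cardiac transcription factors 3 were called higher, or 12%, and 1 lower, or 4%, against 12.4% and 8.24% over all genes. Their median was 0.00, and 5 were higher without siNeg 3. Those that rose were Tbx20, at 93.5, 102 and 126 CPM without PE and 192, 226 and 246 CPM with it (1.05 ± 0.12, adjusted p = 0.000356), Myocd (0.86), a coactivator of serum response factor, and Tead4 (0.77). Irx3, a factor of the conduction system, fell (-0.67). Gata4, Nkx2-5, Mef2c and Srf were not called, with log2 fold changes of 0.15, 0.09, 0.54 and 0.20. Mef2c was called higher without siNeg PE 1 or without siNeg 3 (0.65 each).

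Structural genes of the Z-disc and of the links to the membrane showed the highest share of members called higher among the contractile lists. Of 33 tested members 16 were called higher and 0 lower, or 48.5% against 12.4% over all genes, and the median log2 fold change was 0.52. Besides Ankrd1 and Fhl1, Csrp3, the muscle LIM protein, went from 262, 267 and 238 CPM to 1109, 1047 and 651 CPM (1.87 ± 0.18, adjusted p = 0.000139). Myoz2, which tethers calcineurin to the Z-disc, went from 213, 224 and 202 CPM to 660, 644 and 627 CPM (1.59 ± 0.06, adjusted p = 2.96e-06), with tighter treated replicates than the LIM proteins. Xirp2, a protein of the intercalated disc and Z-disc, stood at 19.2, 22.6 and 34.2 CPM and then at 110, 215 and 165 CPM (2.69 ± 0.28, adjusted p = 0.000198). The spread of Xirp2 within each group was wide, and the groups were still apart. Des (desmin) and Flnc (filamin C), which stabilise the Z-disc, were not called at 0.52 and 0.40.

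The filaments themselves moved unevenly. Of 22 thick filament and M-band genes 6 were called higher and 3 lower (median 0.02), and of 25 thin filament genes 8 higher and 6 lower (median 0.23). The risers on the thick filament included isoforms of other muscle types: Mybpc2 went from 3.88, 2.98 and 2.20 CPM to 33.2, 33.2 and 21.9 CPM (3.28 ± 0.23, adjusted p = 3.19e-05), and Myl4, the atrial essential light chain, from 97.6, 104 and 101 CPM to 296, 244 and 212 CPM (1.31 ± 0.11, adjusted p = 7.66e-05). Mybpc3, the cardiac form of myosin-binding protein C, stood at 1870, 1836 and 1884 CPM and at 1913, 1804 and 1931 CPM, with overlapping groups and a log2 fold change of 0.01. Myl2, the ventricular regulatory light chain, rose by 0.90 and Ttn, titin, by 0.97 on the log2 scale. At the M-band, Myom3 fell from 22.4, 23.6 and 21.4 CPM to 7.74, 7.43 and 8.94 CPM (-1.49 ± 0.10, adjusted p = 2.67e-05) and Myom2 fell by 0.76 on the log2 scale. Of the thin filament members called lower, Acta2, Actb, Actg1, Actg2 and Lmod1 are actins of smooth muscle and of the cytoskeleton or, for Lmod1, a smooth muscle leiomodin. The summed smooth muscle markers fell over the same libraries, and their part in this was not tested. Lmod3 (1.60) and Nebl (1.43), which cap or anchor the thin filament in striated muscle, rose.

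At the intercalated disc 7 of 20 members were called higher and 1 lower (median 0.37). Pkp2, a desmosomal plakophilin, went from 96.9, 87.2 and 93.3 CPM to 200, 196 and 185 CPM (1.07 ± 0.06, adjusted p = 1.27e-05), and Dsc2, a desmosomal cadherin, rose by 1.03 on the log2 scale. The member that fell was Gja5, connexin 40, from 79.7, 80.9 and 106 CPM to 36.5, 37.4 and 42.7 CPM (-1.19 ± 0.12, adjusted p = 0.000165). Gja1, connexin 43, the main gap junction protein of ventricular cells, was not called at -0.37.

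Among calcium handling genes 8 of 37 were called higher and 4 lower (median 0.21). Casq1, the skeletal muscle calsequestrin that stores calcium in the sarcoplasmic reticulum, went from 31.1, 29.0 and 36.6 CPM to 144, 154 and 136 CPM (2.17 ± 0.09, adjusted p = 4.42e-06). Slc8a1, the sodium-calcium exchanger, went from 525, 561 and 659 CPM to 925, 1049 and 1128 CPM (0.83 ± 0.10, adjusted p = 0.000416). Other members of the beat-to-beat calcium cycle were not called: Atp2a2, the reticulum pump, had a log2 fold change of -0.18, its inhibitor Pln of -0.08, the release channel Ryr2 of 0.33 and the L-type channel Cacna1c of -0.09. Stim1, the sensor of store-operated entry, fell by 0.72 on the log2 scale.

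Potassium channel genes leaned lower, while sodium, calcium and pacemaker channel genes were called in both directions. Of 41 potassium channel genes 8 were called lower, 19.5% against 8.24% over all genes, and 2 higher (median -0.31), with 0 higher without siNeg 2 or without siNeg PE 3. Kcnip2 was the largest fall. Kcnd2, the pore subunit that Kcnip2 binds, stood at 2.88, 2.75 and 3.35 CPM and at 3.85, 4.83 and 5.24 CPM (0.63 ± 0.16, adjusted p = 0.0134), a call that was lost without siNeg 2 or without siNeg PE 3. Kcnj3, a subunit of the acetylcholine-gated channel, fell from 12.3, 16.8 and 20.6 CPM to 5.75, 6.23 and 8.45 CPM (-1.28 ± 0.21, adjusted p = 0.00181), and was named after its values were seen. Of 29 sodium, calcium and pacemaker channel genes 5 were higher, or 17.2%, and 6 lower, or 20.7% (median -0.20), against 12.4% and 8.24% over all genes. Scn3b went from 0.923, 0.851 and 0.782 CPM to 11.5, 14.0 and 8.94 CPM (3.75 ± 0.21, adjusted p = 1.27e-05), whereas Scn4b, another β subunit, fell from 98.6, 80.8 and 96.6 CPM to 49.95, 45.9 and 56.0 CPM (-0.86 ± 0.10, adjusted p = 0.000312). Cacnb2, a β subunit of the L-type channel, rose by 1.18, and Rrad, a GTPase that restrains the same channel, fell by 1.15 on the log2 scale.

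Of 41 tested genes of cholesterol and fatty acid synthesis 17 were called higher, or 41.5%, and 0 lower, with 24 not called and a median log2 fold change of 0.53. Cells make sterols from acetyl-CoA through mevalonate, and the SREBP factors raise these genes when sterol in the endoplasmic reticulum is low. Promoters of the 2 synthetic enzymes with the largest rises are shown for their motifs, from RefSeq on build GRCr8, as 300 bases that run from 250 before to 50 after the gene start. The Idi1 window is chr17:66547475-66547774 on the minus strand, and that of Scd is chr1:253231682-253231981 on the minus strand. Capitals mark CCAAT or its complement ATTGG, the box bound by NF-Y.
Idi1: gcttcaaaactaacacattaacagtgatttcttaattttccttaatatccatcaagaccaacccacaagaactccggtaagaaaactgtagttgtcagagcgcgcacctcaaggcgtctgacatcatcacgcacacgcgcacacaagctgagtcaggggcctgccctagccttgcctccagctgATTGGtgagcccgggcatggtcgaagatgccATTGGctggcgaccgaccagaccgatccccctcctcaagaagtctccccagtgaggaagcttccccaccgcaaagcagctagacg
Scd: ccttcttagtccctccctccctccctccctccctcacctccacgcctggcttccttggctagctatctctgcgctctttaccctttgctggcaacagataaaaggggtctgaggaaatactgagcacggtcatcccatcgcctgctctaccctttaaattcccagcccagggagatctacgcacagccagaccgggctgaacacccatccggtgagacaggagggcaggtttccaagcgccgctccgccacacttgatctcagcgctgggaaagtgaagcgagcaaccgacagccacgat
The Idi1 window holds the box at -66 and -35 from the start, and the Scd window holds none. On both strands, 21 of 30 list members with a promoter held CCAAT, or 70.0%, against 37.7% of all 27457 promoters. The sterol element, searched as TCACNCCAC on both strands, was in 0 of the 30 and in 1.13% of all promoters. A match is a description of the letters in this window only.

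Along the pathway, Hmgcs1, the cytosolic synthase that starts the mevalonate route, went from 148, 145 and 148 CPM to 324, 362 and 357 CPM (1.24 ± 0.06, adjusted p = 5.63e-06), and Idi1, the isomerase of isopentenyl diphosphate, from 29.2, 31.7 and 34.8 CPM to 112, 140 and 138 CPM (2.03 ± 0.10, adjusted p = 8.81e-06). Both separated the groups. Of the desaturases, Scd went from 41.4, 49.6 and 33.6 CPM to 129, 135 and 134 CPM (1.67 ± 0.12, adjusted p = 3.83e-05) and Scd2 from 854, 1039 and 906 CPM to 2195, 2249 and 2331 CPM (1.28 ± 0.08, adjusted p = 1.89e-05). These 2 genes are close in sequence. The largest rise in the list was of a gene that does not make sterol: Abcg1, a transporter that exports it, went from 6.28, 9.44 and 7.45 CPM to 36.1, 36.1 and 37.3 CPM (2.24 ± 0.13, adjusted p = 1.75e-05). Abca1, another exporter, rose by 0.90. Of the regulators, Srebf1 rose by 0.86 and Insig1 by 0.65 on the log2 scale, whereas Srebf2 was not called at -0.00.

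Of 49 genes of fatty acid uptake and oxidation 11 were called lower, or 22.4%, and 5 higher (median -0.22). Cpt1b, the muscle carnitine transferase that admits fatty acids to mitochondria, went from 338, 281 and 315 CPM to 189, 171 and 195 CPM (-0.75 ± 0.08, adjusted p = 0.000224), and Ech1, an auxiliary enzyme of β-oxidation, from 271, 194 and 271 CPM to 91.6, 95.7 and 116 CPM (-1.28 ± 0.14, adjusted p = 0.000257). The groups were separate in both. Of the 5 members that rose, Bdh1 and Oxct1 act in ketone use. Bdh1 went from 24.5, 26.3 and 22.8 CPM to 80.5, 76.5 and 77.7 CPM (1.67 ± 0.07, adjusted p = 3.89e-06) and Oxct1, which activates acetoacetate, from 188, 269 and 213 CPM to 470, 498 and 506 CPM (1.14 ± 0.12, adjusted p = 0.000199). Of the regulators Rxrg (-1.35) and Rxra (-0.89), the partners of PPAR receptors, fell, and Ppargc1a was not called at 0.32.

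In the list of the TCA cycle and pyruvate dehydrogenase 4 of 39 members were called higher, or 10.3%, and 1 lower, or 2.56% (median 0.20). Both shares were below the 12.4% and 8.24% over all genes. Pdha1, the catalytic subunit of pyruvate dehydrogenase, went from 296, 338 and 346 CPM to 725, 798 and 812 CPM (1.25 ± 0.08, adjusted p = 1.76e-05), and Pdk2, a kinase that switches that enzyme off, fell from 292, 285 and 283 CPM to 172, 144 and 162 CPM (-0.85 ± 0.07, adjusted p = 6.15e-05). Of 40 genes of glycolysis and glucose uptake 5 were higher and 4 lower (median 0.01). These shares, 12.5% and 10%, lay near the 12.4% and 8.24% over all genes. The largest rise was that of Slc16a3 and the largest fall that of Txnip. Slc16a3, a lactate exporter, went from 27.8, 26.7 and 31.0 CPM to 125, 124 and 113 CPM (2.08 ± 0.08, adjusted p = 2.96e-06), and Slc16a1 rose by 0.96 on the log2 scale. Txnip, which restrains glucose uptake, fell from 362, 267 and 379 CPM to 102, 97.7 and 115 CPM (-1.68 ± 0.13, adjusted p = 5.07e-05). The glucose transporters Slc2a1 and Slc2a4 were not called, at -0.29 and 0.06. In the creatine list of 14 genes, Gatm, the first enzyme of creatine synthesis, rose (1.19) and Gamt, the second, fell (-1.41).

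The oxidative machinery and the ribosome itself held few called genes. Of 36 complex I genes 0 were called in either direction (median 0.05), of 45 genes of complexes II to V 2 were higher and 1 lower (median 0.11), and of 76 mitochondrial ribosomal proteins 2 were higher and 0 lower (median 0.11). Of 77 cytosolic ribosomal proteins 0 were called (median -0.14). These transcripts are short, with a median implied length of 488 bases for the ribosomal proteins. Of 57 translation factors 9 were called higher and 1 lower (median 0.02), and of 89 ribosome biogenesis genes 8 higher and 0 lower (median 0.07). The higher shares, 15.8% and 8.99%, lay on either side of the 12.4% over all genes, and the lower shares, 1.75% and 0%, were below 8.24%. Nop58, a core protein of small nucleolar particles, went from 9.82, 14.2 and 15.5 CPM to 22.9, 29.6 and 29.4 CPM (1.05 ± 0.17, adjusted p = 0.00174). Eif5b, which joins ribosomal subunits, went from 28.6, 35.7 and 44.7 CPM to 53.8, 81.4 and 78.1 CPM (0.97 ± 0.19, adjusted p = 0.00397). In both genes siNeg 1 and siNeg PE 1 were the lowest of their groups.

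In mTOR and insulin signalling 7 of 47 members were called higher, or 14.9%, and 6 lower, or 12.8% (median -0.12), against 12.4% and 8.24% over all genes. The higher count was 12 without siNeg 3 and 5 without siNeg 2. The risers tended to be long, with a median implied length of 4621 bases. The members that fell included brakes on the pathway: Pik3ip1, an inhibitor of PI3 kinase, went from 158, 174 and 178 CPM to 49.3, 50.5 and 66.0 CPM (-1.62 ± 0.11, adjusted p = 3.02e-05), Ddit4l, an inhibitor of mTOR complex 1, from 27.3, 27.3 and 25.6 CPM to 8.93, 8.68 and 12.1 CPM (-1.44 ± 0.13, adjusted p = 0.000102), and Castor1, an arginine sensor that restrains the same complex, from 9.27, 8.12 and 7.11 CPM to 3.29, 3.15 and 3.50 CPM (-1.30 ± 0.14, adjusted p = 0.000209). In each the groups were separate. Foxo1, a transcription factor that insulin signalling inactivates, fell by 1.17 on the log2 scale, while Pik3cb, a catalytic subunit of PI3 kinase, rose by 0.99.

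Stress programmes differed in direction. In the ATF4 list of the integrated stress response 8 of 29 members were called lower and 1 higher (median -0.44), and the lower count was 5 without siNeg 1. Ddit3, also known as CHOP, went from 43.1, 47.1 and 46.6 CPM to 26.1, 28.8 and 30.8 CPM (-0.67 ± 0.08, adjusted p = 0.00033), Herpud1 fell by 0.91 and Stc2 by 0.98, and Atf4 itself was not called at -0.37. Of 36 chaperones of the endoplasmic reticulum 3 were higher, or 8.33% against 12.4% over all genes, and 0 lower (median 0.06). Only 1 was higher without siNeg PE 3 or without siNeg 1, and Hspa5, the central member of the list, stood at 0.10. Heat shock proteins held 10 of 27 called higher, or 37.0%, and 0 lower (median 0.46). Hsp90aa1, the inducible cytosolic HSP90, went from 107, 161 and 174 CPM to 248, 325 and 337 CPM (1.04 ± 0.18, adjusted p = 0.00231), and Cryab, αB-crystallin, a chaperone of desmin and titin, from 902, 924 and 841 CPM to 1822, 1820 and 1532 CPM (0.96 ± 0.08, adjusted p = 6.78e-05). The inducible Hspa1a stood at 3.25, 3.71 and 4.13 CPM and at 2.66, 3.15 and 4.80 CPM, with overlapping groups.

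Of 35 NRF2 and antioxidant genes 6 were called higher, or 17.1%, and 2 lower, or 5.71% (median 0.06), against 12.4% and 8.24% over all genes. Gpx3, the secreted glutathione peroxidase, went from 60.8, 58.0 and 52.9 CPM to 147, 140 and 121 CPM (1.25 ± 0.09, adjusted p = 3.05e-05), and Gpx1, the cytosolic form, fell by 0.76 on the log2 scale. Of 33 genes of p53 and cell death 4 were called higher and 3 lower (median -0.05). These shares, 12.1% and 9.09%, lay near the 12.4% and 8.24% over all genes. Bcl2, which blocks apoptosis, went from 2.10, 1.90 and 3.39 CPM to 9.36, 10.8 and 9.14 CPM (1.99 ± 0.21, adjusted p = 0.000207). Bmf, which promotes it, fell from 45.9, 42.0 and 45.3 CPM to 19.9, 18.6 and 21.9 CPM (-1.14 ± 0.08, adjusted p = 3.16e-05), and Bcl2l11, also known as BIM, fell by 1.05 on the log2 scale. Among 62 genes of atrophy ligases, proteasome and autophagy 4 were higher and 5 lower (median 0.03). At 6.45% and 8.065%, the shares did not exceed the 12.4% and 8.24% over all genes. Of the 5 that fell, 4 were the muscle adaptors Asb10, Asb14, Asb15 and Asb11. Asb10 went from 11.0, 14.8 and 14.2 CPM to 1.27, 1.75 and 2.52 CPM (-2.85 ± 0.23, adjusted p = 5.76e-05). The classic atrophy ligases Trim63 and Fbxo32 were not called at -0.38 and -0.55. Fbxo32 was called lower without siNeg PE 3 (-0.74), without siNeg 1 (-0.66) and with limma on log2(FPKM + 1) (-0.67).

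Cell cycle genes rose in part. In the mitosis list 28 of 61 tested members were called higher, or 45.9%, and 0 lower, with a median of 0.42, and in the list of DNA replication and S phase 17 of 49 were called higher, or 34.7%, and 0 lower, also with a median of 0.42. The replication count was 11 without siNeg 3. Promoters of the 3 mitotic genes with the largest rises are shown for the motifs that such genes often carry, in the same RefSeq window on GRCr8. Capitals mark CCAAT or its complement and the cell cycle homology region (CHR), TTTGAA, which the DREAM and MuvB complexes bind. Kif20b lies at chr1:241840766-241841065 on the plus strand, Hmmr at chr10:25665166-25665465 on the minus strand and Cenpf at chr13:103760837-103761136 on the minus strand.
Kif20b: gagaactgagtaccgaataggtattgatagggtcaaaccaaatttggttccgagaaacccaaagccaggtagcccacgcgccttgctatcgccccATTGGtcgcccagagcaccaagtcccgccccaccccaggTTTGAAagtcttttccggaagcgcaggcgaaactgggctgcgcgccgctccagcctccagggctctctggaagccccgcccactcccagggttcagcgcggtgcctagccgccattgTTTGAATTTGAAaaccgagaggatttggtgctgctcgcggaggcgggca
Hmmr: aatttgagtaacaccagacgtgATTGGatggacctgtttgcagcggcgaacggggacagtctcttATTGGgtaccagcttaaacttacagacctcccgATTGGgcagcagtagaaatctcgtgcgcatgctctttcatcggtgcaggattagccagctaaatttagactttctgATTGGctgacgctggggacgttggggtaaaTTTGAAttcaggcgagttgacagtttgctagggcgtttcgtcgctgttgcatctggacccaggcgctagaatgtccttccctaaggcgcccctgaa
Cenpf: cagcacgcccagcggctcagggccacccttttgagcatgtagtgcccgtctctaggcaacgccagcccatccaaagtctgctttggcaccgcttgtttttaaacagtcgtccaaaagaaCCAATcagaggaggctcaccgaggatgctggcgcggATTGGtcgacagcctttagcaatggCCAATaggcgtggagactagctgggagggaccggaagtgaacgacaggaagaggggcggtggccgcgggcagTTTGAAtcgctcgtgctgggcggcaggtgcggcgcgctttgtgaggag
The CHR begins at -116, 2 and 8 from the start in Kif20b, at -46 in Hmmr and at 3 in Cenpf, each on the strand of the gene. Searched on both strands, it was present in 37 of 53 tested mitosis genes with a promoter, or 69.8%, and in 22 of the 26 called higher, against 11.5% of the 10674 tested genes with a promoter and 18.1% of the whole table. Of 39 replication genes with a promoter 3 held it, or 7.69%. The CCAAT box was in 66.0% of the mitosis set and 64.1% of the replication set, and 37.4% of tested genes.

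Kif20b, a kinesin of cytokinesis, stood at 1.33, 1.16 and 1.86 CPM in siNeg and 3.25, 6.54 and 8.33 CPM in siNeg PE (2.05 ± 0.35, adjusted p = 0.0021), Hmmr, a spindle protein, at 5.80, 6.81 and 7.26 CPM and then 15.6, 20.97 and 23.7 CPM (1.60 ± 0.17, adjusted p = 0.0002), and Cenpf, a kinetochore protein, at 2.44, 2.36 and 2.87 CPM and then 3.33, 8.37 and 11.5 CPM (1.60 ± 0.39, adjusted p = 0.0107). In all 3 siNeg PE 1 was the lowest treated library and siNeg PE 3 the highest. Mki67, the common marker of cycling cells, went from 19.5, 23.4 and 31.4 CPM to 46.4, 76.8 and 87.7 CPM (1.505 ± 0.25, adjusted p = 0.00169), and Top2a rose by 1.41 on the log2 scale. The central regulators of mitosis were not called: Plk1 stood at 36.4, 30.0 and 32.6 CPM and 32.9, 29.5 and 32.7 CPM with overlapping groups, and Cdc20, Ccnb1 and Cdk1 had log2 fold changes of 0.01, 0.27 and 0.31. The called mitosis genes had a median implied length of 3441 bases, with 10 of 28 in the longest of the 5 length groups, and the members not called 2174 bases, with 3 of 33. The median log2 level of the called members over the siNeg mean was 0.84 in siNeg PE 1 against 1.29 and 1.37 in the other two treated libraries, while that of the members not called was 0.27, 0.21 and 0.26. The part of transcript length in this split was not tested. Replication genes showed less of it, with 2 of 17 called members in the longest group: Rrm2, a subunit of ribonucleotide reductase, went from 107, 96.9 and 92.6 CPM to 190, 192 and 204 CPM (0.98 ± 0.07, adjusted p = 2.64e-05) and Pcna, the polymerase clamp, from 52.9, 51.5 and 50.9 CPM to 86.4, 85.4 and 77.5 CPM (0.68 ± 0.06, adjusted p = 0.000106). Cdkn1a, the p21 inhibitor, was not called at -0.09.

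**Figure D3:**
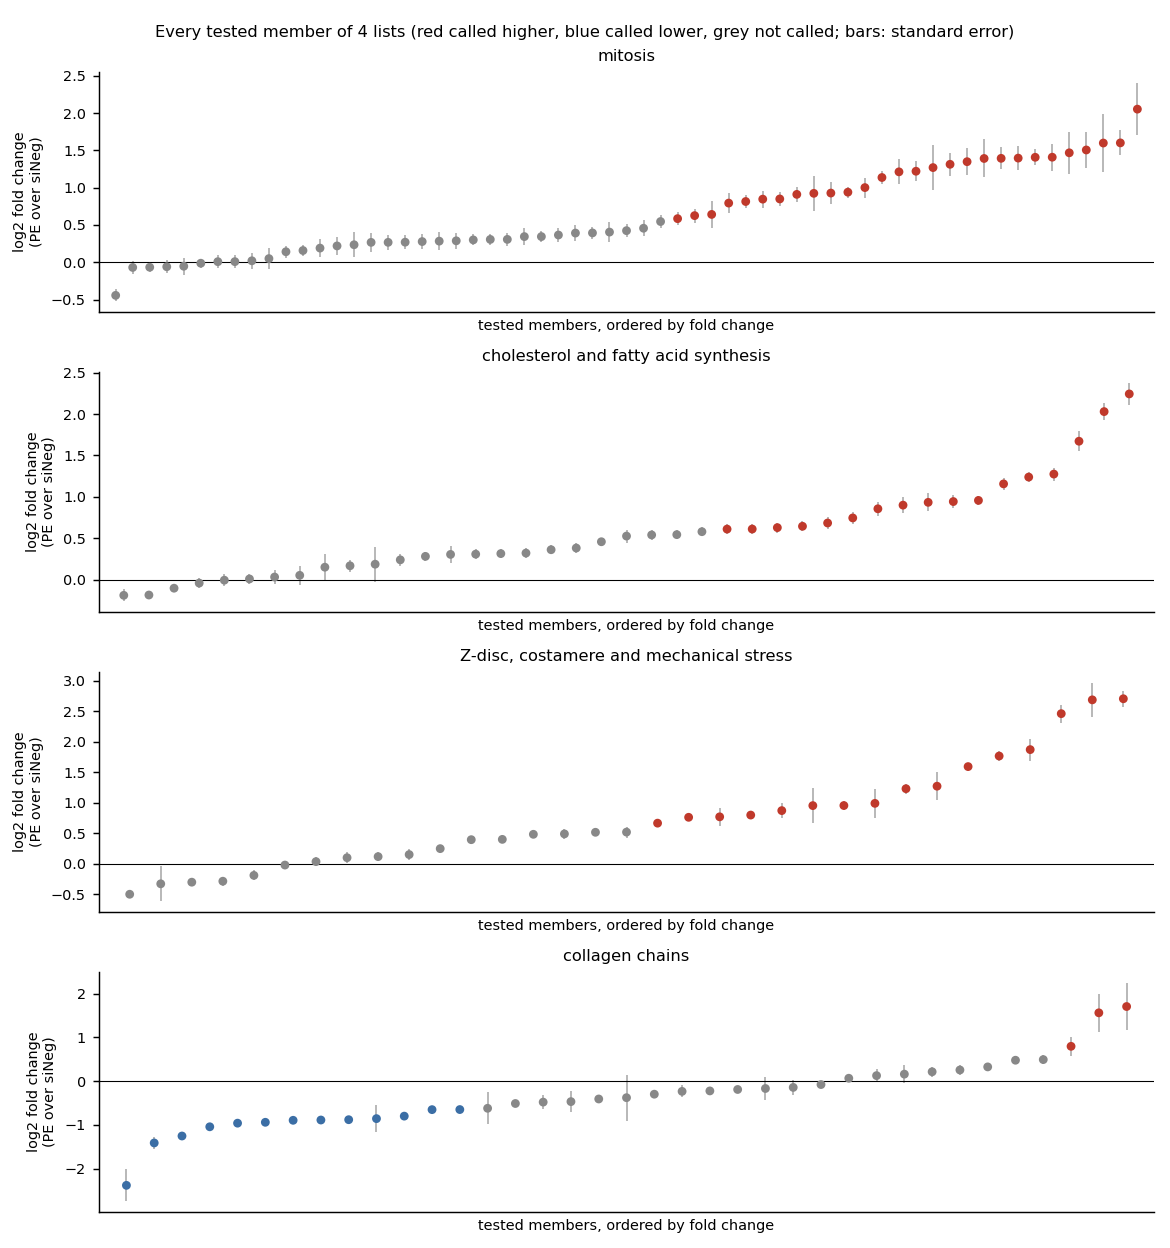
Fitted log2 fold change (PE over siNeg) with its standard error for every tested member of 4 lists, ordered by size, with called members in red or blue. Every panel slopes upward because of this ordering. In the mitosis, cholesterol and Z-disc lists 0 members were called lower, whereas 13 of 37 collagen chains were called lower.

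Secreted growth factors and hormones leaned lower, while the TGF-β and BMP family moved in both directions. Of 47 growth factors and hormones 14 were called lower, or 29.8%, and 8 higher (median -0.25). The falls included factors that act on vessels: Vegfc went from 23.4, 23.6 and 26.3 CPM to 7.06, 8.40 and 9.19 CPM (-1.57 ± 0.11, adjusted p = 3.52e-05), Pgf fell by 1.81, and Adm, adrenomedullin, the ligand that Ramp3 helps to receive, from 40.1, 38.6 and 40.6 CPM to 16.2, 15.3 and 20.2 CPM (-1.21 ± 0.10, adjusted p = 8.29e-05). Factors known as hypertrophic signals also fell, with Edn1 (endothelin 1) at -0.92, Ctf1 (cardiotrophin 1) at -1.12 and Nrg1 (neuregulin 1) at -0.96. These 3 were named after their values were seen. Bdnf, a neurotrophin, rose by 1.60 from 0.591 to 1.16 CPM in siNeg. In the TGF-β and BMP family 9 of 33 were called higher, or 27.3%, and 8 lower, or 24.2% (median -0.24), against 12.4% and 8.24% over all genes. Bmp7 went from 43.0, 43.2 and 44.1 CPM to 115, 112 and 116 CPM (1.40 ± 0.05, adjusted p = 2.96e-06), with replicates almost alike, while Bmp4 fell by 1.13, Inhbb (the activin βB chain) by 1.68 and Tgfb3 from 316, 281 and 284 CPM to 161, 153 and 128 CPM (-0.99 ± 0.09, adjusted p = 0.000112). Tgfb2 rose by 0.72.

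Of 32 Wnt pathway genes 9 were called lower and 4 higher (median -0.18). Of the 4 that rose 3 were secreted inhibitors of Wnt, and Sfrp1 went from 62.3, 63.1 and 66.9 CPM to 182, 177 and 160 CPM (1.44 ± 0.07, adjusted p = 5.35e-06), Wif1 from 4.76, 4.53 and 4.73 CPM to 14.8, 16.4 and 17.8 CPM (1.81 ± 0.11, adjusted p = 1.75e-05). Axin2, a target gene of the pathway, fell (-1.13), as did Wnt4 (-1.73) and Nkd2 (-1.15). In the Notch list 5 of 16 were called lower and 0 higher (median -0.39): the ligand Jag1 went from 52.2, 48.6 and 56.9 CPM to 19.0, 19.5 and 20.4 CPM (-1.42 ± 0.08, adjusted p = 1.12e-05), the receptor Notch3, a marker of mural cells, from 138, 118 and 109 CPM to 70.3, 59.3 and 54.5 CPM (-0.99 ± 0.11, adjusted p = 0.000307), and the target Heyl fell by 0.95. Hes1, another target, was not called at -0.47. Notch3 is one of the smooth muscle and pericyte markers that fell, and their part in the Notch counts was not tested.

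Matrix genes held high shares of called falls. Of 37 collagen chains 13 were called lower, or 35.1% against 8.24% over all genes, and 3 higher (median -0.38), and of 66 matricellular and remodelling genes 22 were lower, or 33.3%, and 6 higher (median -0.44). Col3a1 went from 6480, 5720 and 5573 CPM to 2402, 2505 and 2535 CPM (-1.26 ± 0.07, adjusted p = 1.39e-05). Eln went from 1504, 1286 and 1219 CPM to 396, 407 and 371 CPM (-1.77 ± 0.09, adjusted p = 6.49e-06), and Tnc, tenascin C, from 242, 222 and 225 CPM to 88.1, 85.5 and 81.1 CPM (-1.44 ± 0.06, adjusted p = 3.89e-06). In each the groups were far apart and siNeg 1 was the highest library. The 3 collagens called higher, Col28a1, Col19a1 and Col7a1, were each expressed under 3 CPM and each lost its call on leaving out 1 library or another. Timp1, an inhibitor of matrix proteases, rose from 53.8, 50.4 and 47.7 CPM to 136, 135 and 111 CPM (1.33 ± 0.09, adjusted p = 2.81e-05). Ctgf and Postn, common readouts of fibroblast activation, were not called at -0.07 and 0.14. The summed fibroblast markers, which include Col1a1, Col1a2 and Col3a1, fell over the same libraries, and the part of cell content in the matrix falls was not tested.

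Of 50 genes of the actin, tubulin and intermediate filament cytoskeleton 9 were called lower, or 18%, and 7 higher, or 14% (median 0.05). Over all genes 8.24% were called lower and 12.4% higher. Microtubule and epithelial keratin genes were among the risers: Tuba1a went from 1119, 1013 and 894 CPM to 2206, 2188 and 1811 CPM (1.04 ± 0.10, adjusted p = 0.000165), and Krt18 from 1.48, 1.199 and 0.968 CPM to 6.11, 7.82 and 4.92 CPM (2.37 ± 0.23, adjusted p = 0.000146). Smooth muscle genes were among the falls, with Tagln going from 1178, 1106 and 1038 CPM to 506, 444 and 409 CPM (-1.29 ± 0.09, adjusted p = 2.65e-05). Cnn1, calponin 1, a smooth muscle gene as well, moved the other way, from 44.6, 40.4 and 38.2 CPM to 123, 140 and 106 CPM (1.58 ± 0.11, adjusted p = 2.63e-05).

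Immune genes leaned lower from low levels. Of 53 interferon-stimulated genes 12 were called lower and 6 higher (median -0.40), of 34 chemokines, cytokines and NF-κB genes 11 lower and 4 higher (median -0.46), and of 32 complement and antigen presentation genes 6 lower and 4 higher (median -0.23). The lower shares were 22.6%, 32.35% and 18.75%, against 8.24% over all genes. The higher shares, 11.3%, 11.8% and 12.5%, lay near the 12.4% over all genes. The lower chemokine count was 7 without siNeg 1, and the lower interferon count ran from 8 to 16 on leaving out 1 library. Irf7, a master regulator of interferon, went from 36.0, 39.7 and 30.2 CPM to 18.9, 12.5 and 12.8 CPM (-1.26 ± 0.17, adjusted p = 0.000663), and Il15 from 7.86, 8.74 and 8.56 CPM to 3.37, 3.15 and 3.17 CPM (-1.38 ± 0.11, adjusted p = 6.35e-05). Ifit1bl went the other way, from 2.07, 2.24 and 1.68 CPM to 19.5, 21.9 and 15.5 CPM (3.25 ± 0.17, adjusted p = 9.93e-06). Cd55, which protects cells from complement, rose from 1.44, 1.59 and 2.42 CPM to 5.55, 5.68 and 6.67 CPM (1.71 ± 0.21, adjusted p = 0.000389). The macrophage markers Csf1r and Itgam fell by 1.06 and 1.19, and the part of macrophage content in the immune falls was not tested.

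In the circadian list 6 of 20 members were called lower and 2 higher (median -0.14). Dbp, an output gene of the clock, went from 53.1, 53.2 and 52.6 CPM to 25.2, 22.4 and 25.1 CPM (-1.13 ± 0.07, adjusted p = 1.76e-05), and Nr1d1, a repressor in the core loop, fell by 0.66. Clock rose from 17.9, 20.9 and 27.9 CPM to 37.9, 53.7 and 59.9 CPM (1.18 ± 0.20, adjusted p = 0.0019), and its partner Arntl was not called at 0.46. Of 49 chromatin regulators 3 were higher and 4 lower, shares at or below those over all genes, with 1 higher without siNeg PE 3.

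**Figure D4:**
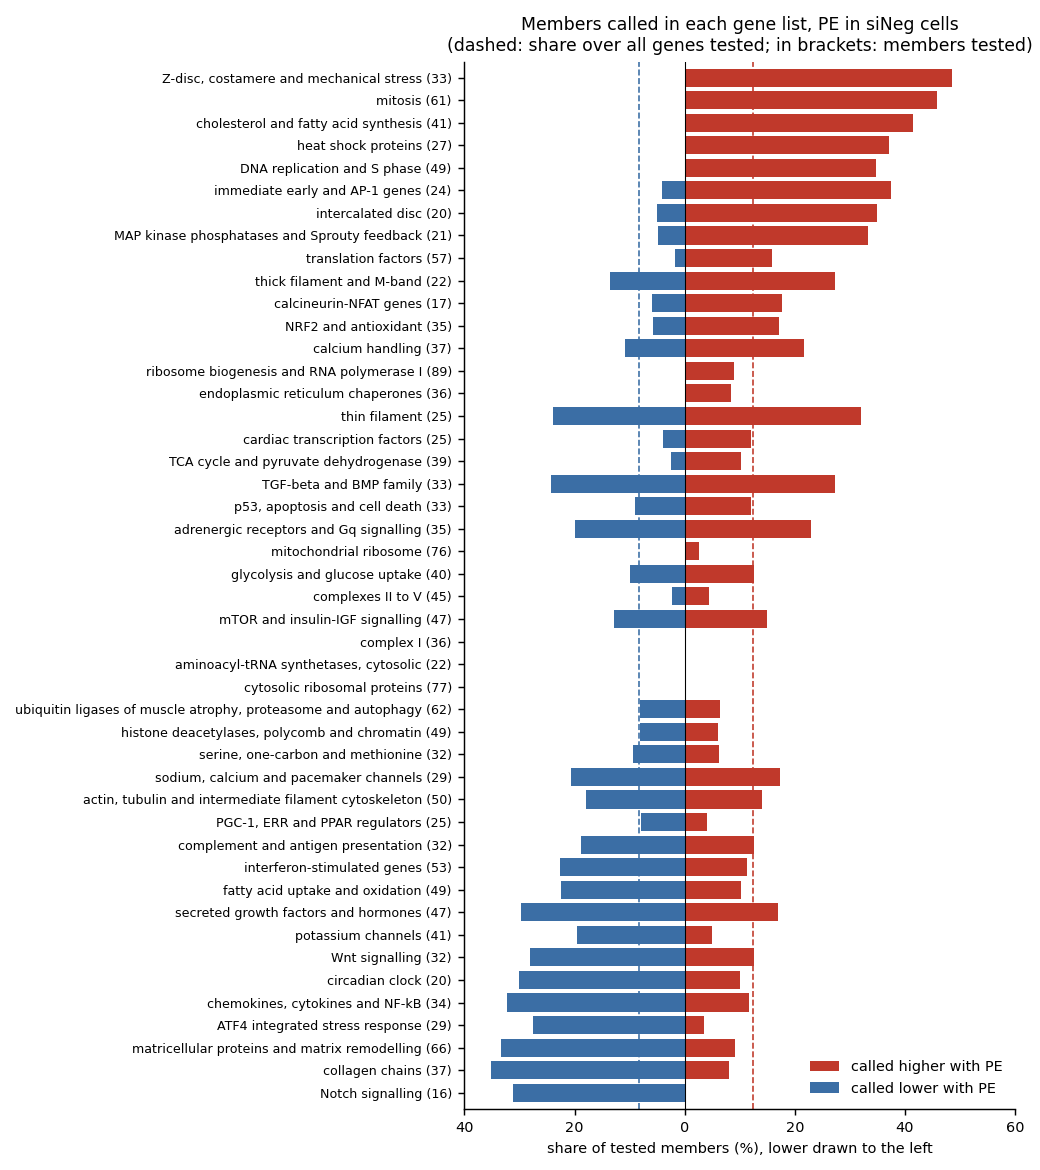
Percent of tested members called higher (red) and lower (blue) with PE in each gene list of at least 15 tested members, cell type markers left out, with the shares over all 13719 genes, 12.4% and 8.24%, as dashed lines. Z-disc, mitosis and cholesterol lists extend farthest to the higher side and collagen, matricellular, chemokine and Notch lists to the lower side.

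By symbol families, zinc finger genes held 43 of 304 called higher, or 14.1%, and 16 lower, or 5.26%, against 12.4% and 8.24% over all genes. Solute carriers held 20 higher and 27 lower of 236, and ADAM and ADAMTS proteases 4 higher and 12 lower of 35. Semaphorins and plexins, guidance molecules and their receptors, held 1 higher and 7 lower of 26. Phosphodiesterases, which degrade cyclic nucleotides, held 5 higher and 0 lower of 17, and A-kinase anchors, which place protein kinase A, 5 higher and 1 lower of 14. Kinesins held 10 higher and 2 lower of 36, in part the mitotic ones. Integrins, the matrix receptors, held 8 higher and 6 lower of 28. The 971 tested loci with LOC or RGD symbols held 127 higher and 61 lower, shares of 13.1% and 6.28% that lie near those over all genes.

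The PE effect was then set beside that in the libraries labelled siSlc25a26. Slc25a26 stood at 29.3 to 33.2 CPM in siNeg, 14.7 to 15.8 CPM in siSlc25a26, 86.2 to 113 CPM in siNeg PE and 98.8 to 106 CPM in the libraries labelled siSlc25a26 PE, so the silencing shows in the untreated libraries and not in the treated ones. There 1389 of 13776 genes were called higher with PE, or 10.1%, and 1436 lower, or 10.4%. Of the 1708 genes called higher in siNeg cells 820 were also called higher there, which is 48.0% of the first list and 59.0% of the second, and of the 1130 called lower 637 were also called lower, 56.4% and 44.4%. Only 11 and 3 genes were called in opposite directions. The difference between the PE effects was tested as an interaction over all 12 libraries. Of 14097 genes 305 had a higher PE effect in the libraries labelled siSlc25a26, or 2.16%, and 471 a lower one, or 3.34%, and the latter count was 301 without siNeg PE 3.

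The lists did not all keep their PE effect. Mitosis genes, 28 of 61 called higher in siNeg cells, had 5 called higher in the libraries labelled siSlc25a26, with a median of 0.17, and 10 members with a lower effect by the interaction test. Hmmr was one of them, with a PE effect of 1.60 in siNeg cells and 0.81 in the others, and Top2a another, with 1.41 and 0.27. Replication genes had 3 called higher, with a median of 0.15, and Rrm2 had effects of 0.98 and 0.29. Z-disc genes had 24 called higher, with a median of 1.06 against 0.52, and Fhl1 had effects of 2.46 and 3.89. Cholesterol genes had 25 called higher and a median of 0.74. Among matricellular genes 13 had a higher effect by the interaction test: Tnc, which fell by 1.44 in siNeg cells, was at -0.17, and Fn1 at -1.15 and -0.36. Among interferon-stimulated genes 14 had a lower effect, with 34 called lower and a median of -0.78. Of the α1 receptors, Adra1d fell further, at -1.29 and -2.09, and so did Adra1b, at -0.93 and -1.73. Pnoc had the widest gap among the leading genes, with 7.87 and 5.52.

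**Figure D5:**
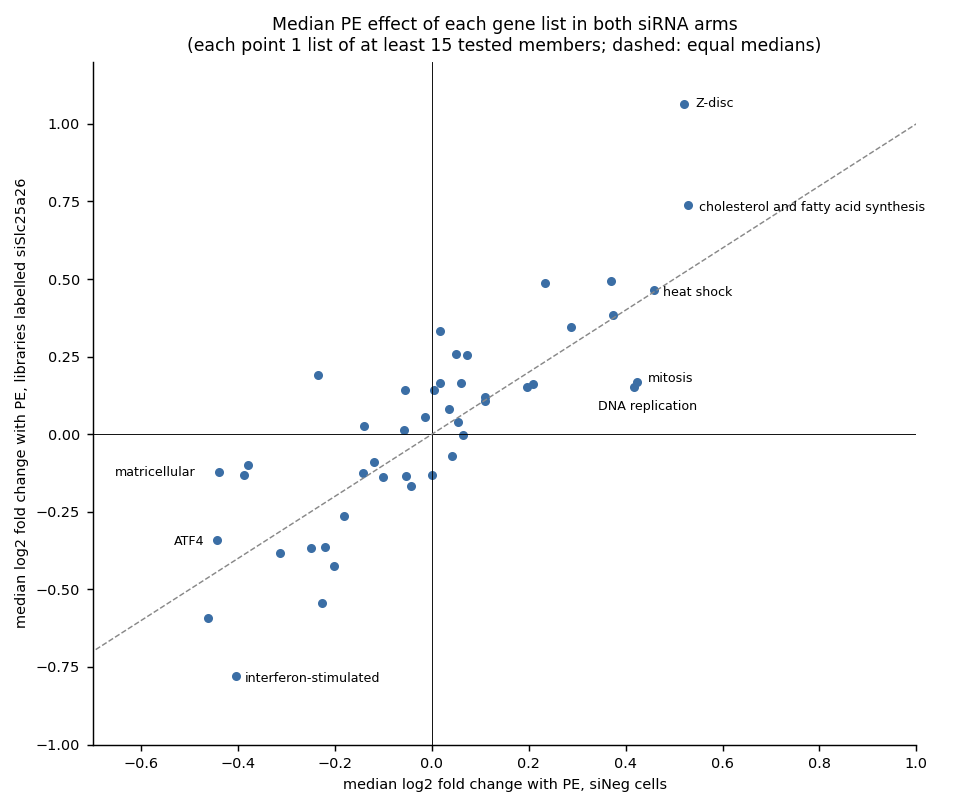
Median log2 fold change with PE of each list with at least 15 tested members, in siNeg cells (x axis) and in the libraries labelled siSlc25a26 (y axis), with a dashed line of equal medians. Z-disc genes lie above the line at 0.52 and 1.06, mitosis and DNA replication genes below it at 0.42 and 0.17 and 0.42 and 0.15, and interferon-stimulated genes below it at -0.40 and -0.78.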

How the data were processed

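RNA of 12 libraries of Sprague-Dawley NRVMs was sequenced, with 3 independent biological replicates in each of 4 groups, and 6 libraries entered the main comparison. The deposited table holds expected counts and FPKM values per gene. In the submitters' processing notes the authors name HISAT, Bowtie2 and the build Rnor_6.0. The counter, annotation, versions and strandedness are not given in the sources used here.

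The deposited expected counts were rounded to whole numbers, since 20.8% to 21.2% of the values in a library were not whole, although whole counts had been assumed when the test was chosen. Genes were filtered by edgeR's expression filter, scaled by TMM and tested with the quasi-likelihood test of edgeR 4.0.16 in R 4.3.3, siNeg PE against siNeg, with Benjamini-Hochberg adjustment. Calls used the study's thresholds, a fold change over 1.5 and an adjusted p under 0.05. The deposited FPKM values served for levels between genes, for implied transcript lengths and, as log2(FPKM + 1) or log2(FPKM + 0.1), for limma 3.58.1. DESeq2 1.42.0, limma-voom, other filters, a replicate block, all libraries in one fit and leaving out each library were alternatives. The scripts were tested on simulated data.

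The genes and lists were chosen with earlier results of these data known. Named genes were the 12 largest rises and falls among genes of at least 5 CPM in the higher group, the 8 largest gains and losses in CPM, up to 3 called members each way per list, members that define a list, and 6 each way for the interaction. The largest rises and falls were taken only from called genes whose libraries did not overlap between groups. Rgs4, Prkca, Abca1, Insig1, Asb11, Actg1, Actg2, Tgfb2, Edn1, Ctf1, Nrg1 and Kcnj3 were named after their values were seen. Intervals and floors cover counting error only. Some genes are not reported here.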

Additional observations from a re-analysis of the deposited data

Results flagged for a closer look

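These results stood out because the PE effect differed between siNeg cells and the libraries labelled siSlc25a26, by the interaction test of edgeR over all 12 libraries at an adjusted p under 0.05 and a fold over 1.5. In the latter the effect was higher for 305 genes and lower for 471. Slc25a26 itself was not reduced in the libraries labelled siSlc25a26 PE, so what the difference stands for cannot be told from the labels.

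Each value that follows is the log2 PE effect in the libraries labelled siSlc25a26 minus that in siNeg cells. Among genes with values in the report, the higher differences were Scn3b 1.25, Megf6 0.73, Actc1 0.92, Fhl1 1.40, Fn1 0.77, Dusp8 0.75, Dusp4 0.97, Nr4a3 1.17, Notch3 0.59, Pgf 0.82, Myom2 1.06, Acta2 0.88, Castor1 0.65, Slc25a26 1.06, Scd 0.85, Gatm 0.93, Itgam 1.03, Csf1r 0.82, Slc2a4 0.72, Ctgf 1.43, Tnc 1.24, Tgfb2 0.91, Tgfb3 1.28 and Flnc 0.67. The lower ones were Pnoc -2.37, Gda -1.51, Olr1 -1.14, Ifit1bl -1.71, Asb10 -1.41, Gabrb2 -1.56, Asb14 -1.55, Adra1d -0.82, Irx3 -0.65, Gja5 -1.03, Kcnd2 -1.77, Rrad -0.77, Scn4b -1.69, Pik3ip1 -0.95, Ddit4l -0.92, Ech1 -0.72, Gamt -0.77, Bmf -0.92, Bcl2l11 -0.82, Asb15 -1.02, Hmmr -0.81, Adrb1 -0.84, Top2a -1.15, Fbxo32 -1.06, Ppargc1a -0.83, Rrm2 -0.72 and Adra1b -0.81.

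The largest higher differences over all genes were Rai2 2.14, Bean1 2.10, Azin2 1.89, Cnn1 1.75, Creb5 1.70 and Ildr2 1.63. Rai2 stood at 7.58 ± 0.40 CPM in siNeg and 8.13 ± 1.35 CPM in siNeg PE, and at 4.61 ± 0.36 and 21.8 ± 1.197 CPM in the libraries labelled siSlc25a26 without and with PE (SD, n = 3). The largest lower differences were Triap1 -6.66, Faap100 -3.28, Reg3b -2.42, Pnoc -2.37, MGC108823 -2.32 and Fam181b -2.08. Triap1 varied widely among the siNeg PE libraries, at 4.08 ± 3.30 CPM. MGC108823 and Fam181b differed before PE was given, at 0.778 ± 0.158 and 0.777 ± 0.115 CPM in siNeg and 138 ± 11.2 and 13.6 ± 1.90 CPM in siSlc25a26.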

How the results depend on the processing

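The counts of genes called with PE in siNeg cells, 1708 higher and 1130 lower, became 857 and 733 with limma on log2(FPKM + 1), 3456 and 3329 with no fold threshold, and 609 and 437 with a 2-fold threshold. DESeq2 gave 1681 and 1005. Leaving out 1 library at a time gave 1420 to 1994 higher and 951 to 1138 lower, in the libraries labelled siSlc25a26 1176 to 1610 and 1346 to 1529, and for the interaction 220 to 326 higher and 301 to 646 lower. Without siNeg PE 3 the interaction gave 301 lower in place of 471. With the replicate block the counts were 1803 and 1166, and 2812 of 2838 calls were made again. Same-numbered siNeg and siNeg PE libraries correlated in their deviations at 0.221, 0.0309 and 0.283, and different-numbered ones at -0.275 to 0.0602. The main fit did not treat the numbers as pairs, and whether they mark pairs was not tested. With the block the interaction gave 326 higher and 619 lower, in place of 305 and 471. The median of neural and Schwann markers turned to -0.18 with no filter on low counts. Calls higher made up 53.7% to 65.0% of all calls. With log2(FPKM + 1), list counts of low genes shrank, with 5 of 8 adrenergic, 5 of 9 immediate early, 2 of 8 secreted and 10 of 17 replication genes called higher, and 6 of 12 interferon genes called lower. Of 321 genes that the naming rules gave 53 were no longer called there, and 6 to 15 on leaving out a library; none reversed under the settings run. The cause of these shifts was not tested.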
